A study of Mus musculus with 9 samples.

Results

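The cells described here were intestinal macrophages of mouse defined by transcript: cells with high counts of the complement C1q genes (C1qa, C1qb and C1qc) that also held transcripts of Cd163, Lyve1 or Folr2. A deposited barcode was kept when at most 15% of its UMIs (unique molecular identifiers, each standing for 1 captured transcript) were mitochondrial and at least 200 genes were detected. A kept cell was C1q-high when C1qa, C1qb and C1qc together gave at least 5 UMIs and at least 30 per 10000 UMIs of that cell, with Hbb-bs, a haemoglobin gene, under 10 UMIs. A C1q-high cell was a member when Cd163, Lyve1 and Folr2 together gave at least 2 UMIs. There were 315 members among 2721 C1q-high cells (11.6%), 31759 kept cells (0.992%) and 37123 barcodes, and the 2406 C1q-high cells under that limit, called other C1q-high cells below, were the cells they were set against.

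The 9 single-cell libraries were made from CD11b+ cells of male C57BL/6 mice aged 7 to 8 weeks, labelled as lamina propria tissue (LP, the connective tissue layer of the mucosa). Small intestine libraries 1 and 2 came from wildtype mice that the labels call normal, with no word on their microbiota. Germ-free colon libraries 1 and 2 came from wildtype mice raised without microbes. Single libraries came from the colon of wildtype specific pathogen-free (SPF) mice given pan-antibiotics (ampicillin at 1 g/L, vancomycin at 0.5 g/L, neomycin sulfate at 1 g/L and metronidazole at 1 g/L) in drinking water, of mice labelled Nlrc4 deficient and given 2.5% dextran sodium sulfate (DSS, which injures the colonic epithelium) for 7 days, and of wildtype SPF mice given the same DSS. SPF colon libraries 1 and 2 came from untreated wildtype mice. The study describes sorting CD45+CD11b+ cells from lamina propria, submucosa and the muscle layer, and sequencing cells pooled from several mice. It does not say how that pool relates to these libraries. The labels do not say whether libraries came from separate mice or how many mice each pooled. The p-values here therefore measure only the spread between libraries, which may be technical.

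Macrophages of the gut wall are renewed partly from blood monocytes and partly maintained in place, and those near vessels, nerves and muscle are known for a set of scavenger and uptake receptors. Cd163 encodes the receptor that takes up haemoglobin bound to haptoglobin. Lyve1 encodes a hyaluronan receptor shared with lymphatic endothelium, and Folr2 encodes a folate-binding surface protein. C1qa, C1qb and C1qc encode the subunits of C1q, which starts the classical complement pathway and is made mainly by tissue macrophages.

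The genes of the gate lie apart from each other in the genome (GRCm38, gene bounds of GENCODE M21). Cd163 lies at chr6:124304656-124330527 on the plus strand, Lyve1 at chr7:110850607-110863239 and Folr2 at chr7:101839988-101857194, both on the minus strand. RefSeq promoters (GRCm38.p6, 250 bases before to 50 after a gene's start) are shown for Cd163 and Folr2, which defined the cells, and for F13a1, the gene outside the gate with the smallest p-value among those higher in members; Lyve1 is named only. Capitals mark 2 motifs searched on both strands, TGCTGA (half-site bound by MAF factors) and AGGAAGT (core bound by PU.1, a macrophage lineage factor); the motifs share no overlapping match here.
Cd163, chr6:124304401-124304700, plus strand: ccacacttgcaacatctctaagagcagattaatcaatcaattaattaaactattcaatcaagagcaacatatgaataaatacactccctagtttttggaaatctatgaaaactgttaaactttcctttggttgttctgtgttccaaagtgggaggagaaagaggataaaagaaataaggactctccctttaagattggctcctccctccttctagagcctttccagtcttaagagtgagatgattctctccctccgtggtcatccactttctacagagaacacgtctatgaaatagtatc
Folr2, chr7:101845282-101845581, minus strand: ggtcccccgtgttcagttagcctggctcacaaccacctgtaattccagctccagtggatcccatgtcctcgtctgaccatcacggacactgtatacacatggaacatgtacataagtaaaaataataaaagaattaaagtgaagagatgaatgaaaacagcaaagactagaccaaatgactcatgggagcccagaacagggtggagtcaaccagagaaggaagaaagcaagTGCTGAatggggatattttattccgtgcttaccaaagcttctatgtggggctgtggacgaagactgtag
Folr2, chr7:101857141-101857440, minus strand: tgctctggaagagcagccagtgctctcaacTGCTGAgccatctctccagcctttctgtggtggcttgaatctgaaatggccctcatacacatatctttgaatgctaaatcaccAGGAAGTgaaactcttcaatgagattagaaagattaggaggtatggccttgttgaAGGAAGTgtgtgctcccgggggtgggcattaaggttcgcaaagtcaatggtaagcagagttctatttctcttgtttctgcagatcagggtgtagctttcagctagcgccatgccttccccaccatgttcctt
F13a1, chr13:37049164-37049463, minus strand: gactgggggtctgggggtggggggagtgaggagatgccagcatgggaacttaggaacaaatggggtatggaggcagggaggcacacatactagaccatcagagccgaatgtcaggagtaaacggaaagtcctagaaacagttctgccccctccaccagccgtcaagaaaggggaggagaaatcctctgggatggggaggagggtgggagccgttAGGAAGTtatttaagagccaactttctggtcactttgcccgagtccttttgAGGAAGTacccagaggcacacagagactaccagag
The Cd163 window held neither string. The upstream Folr2 window held TGCTGA at position -220 and AGGAAGT at -137 and -82 relative to the start, the downstream one held TGCTGA at -19, and the F13a1 window shown held AGGAAGT at -36 and at 15. A second F13a1 window in the table, chr13:37050195-37050494, held neither string. Of all 32851 promoters in the table, 19.5% held TGCTGA and 9.35% held AGGAAGT. Among the 12 genes with the largest named increases in members, 7 matched the table, and of their 11 windows 2 held TGCTGA and 1 held AGGAAGT. Among the 12 with the largest named decreases, 10 matched, and of their 12 windows 3 held TGCTGA and 4 held AGGAAGT. These are matches of letters only.

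Most members were chosen by Cd163. Cd163 was detected in 298 of the 315 members (94.6%) and gave 1730 of the marker UMIs (86.4%). Lyve1 was detected in 58 members (18.4%; 175 UMIs) and Folr2 in 37 (11.7%; 98 UMIs). By combination, 235 members held Cd163 alone, 40 held Cd163 with Lyve1, 16 held Cd163 with Folr2, and 7 held all 3 genes. The 17 members without Cd163 comprised 8 with Lyve1 and Folr2, 6 with Folr2 alone and 3 with Lyve1 alone. The median member held 5 marker UMIs and the highest 44. The label that names all 3 genes therefore describes cells of which 25.4% held any UMI of Lyve1 or Folr2, and the values of these genes are a description, since they chose the cells.

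The make-up differed between the small intestine and the germ-free colon. In small intestine 2, Cd163 was present in 245 of 247 members (99.2%), Lyve1 in 39 (15.8%) and Folr2 in 10 (4.05%). In the 2 germ-free colon libraries together, Cd163 was present in 27 of 38 members (71.1%), Lyve1 in 14 (36.8%) and Folr2 in 18 (47.4%), and 11 had no Cd163. Members' Cd163 level per 10000 UMIs was 8.90 in small intestine 1, 12.5 in small intestine 2, 11.1 and 2.97 in the germ-free colon libraries, 12 in SPF colon 1 and 0 in the 1 member of SPF colon 2. It was 4.70 in the antibiotic-treated colon, 5.07 in the DSS colon labelled Nlrc4 deficient and 4.07 in the DSS colon, from 3, 2 and 4 members. The Lyve1 level was 0 and 0.655 in the small intestine libraries, against 3.69 and 2.59 in the germ-free colon libraries. The Folr2 level was 0.387 and 0.106 in the small intestine libraries, against 2.21 and 2.40 in the germ-free colon libraries. Both genes were thus higher in each germ-free colon library than in each small intestine library, while for Cd163 the libraries overlapped. The other colon libraries also had Folr2 above both small intestine values. Folr2 stood at 1.80 and 1.74 in the SPF colon and 1.04 in the antibiotic-treated colon. It stood at 4.06 in the DSS colon labelled Nlrc4 deficient and 2.03 in the DSS colon. In the same order Lyve1 stood at 0.801, 0, 3.65, 0 and 1.22. These libraries held 1 to 14 members each, and Folr2 in small intestine 1 was 1 UMI.

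**Figure D1:**
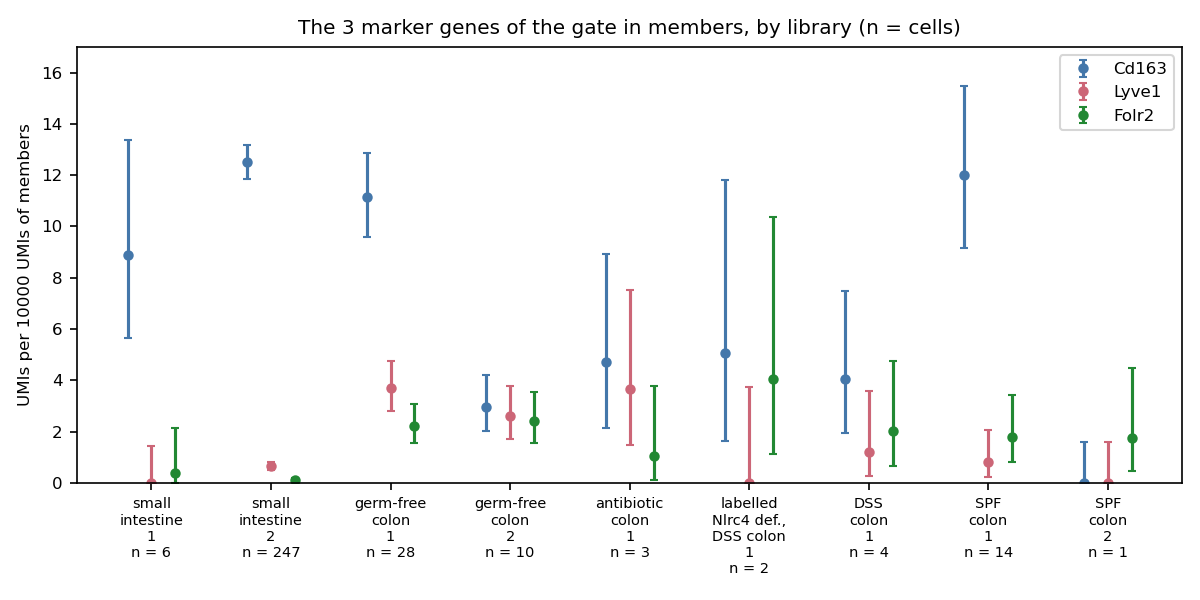
Levels of Cd163, Lyve1 and Folr2 in members of each library, in UMIs per 10000 UMIs of the class, with exact Poisson 95% intervals that cover counting error only. Cd163 stands at 12.5 in small intestine 2 and 11.1 in germ-free colon 1, while Lyve1 and Folr2 stand near Cd163 in germ-free colon 2 (2.59 and 2.40, against 2.97), and the 1 member of SPF colon 2 has Folr2 alone.

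The members came mostly from 1 library. Small intestine 2 gave 247 members (78.4%), and the other 8 libraries gave 68. As a share of C1q-high cells, members made up 29.0% in small intestine 2 (exact binomial 95% interval 26% to 32.2%; 247 of 851) but 2.12% in small intestine 1 (0.782% to 4.56%; 6 of 283). They made up 14.4% in germ-free colon 1 (9.81% to 20.2%; 28 of 194) and 11.2% in germ-free colon 2 (5.52% to 19.7%; 10 of 89). The share was 3.03% in the antibiotic-treated colon (0.629% to 8.60%; 3 of 99), 0.471% in the DSS colon labelled Nlrc4 deficient (0.0570% to 1.69%; 2 of 425) and 1.17% in the DSS colon (0.321% to 2.98%; 4 of 341). In the SPF colon it was 4.07% in library 1 (2.24% to 6.73%; 14 of 344) and 1.05% in library 2 (0.0266% to 5.73%; 1 of 95). The intervals cover counting error only. Both germ-free colon libraries lay above both SPF colon libraries, whereas the small intestine libraries lay on either side of SPF colon 1.

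Germ-free colon libraries averaged 12.8% ± 2.26 and SPF colon libraries 2.56% ± 2.13 (SD, n = 2 each), a difference of 10.27 percentage points with a two-sided exact permutation p = 0.333, which is the smallest that 2 libraries against 2 can give. Small intestine libraries averaged 15.6% ± 19.0 against the same 2.56% ± 2.13 in the SPF colon (exact permutation p = 0.667), and without small intestine 2 the difference was -0.441 points. As a share of all kept cells, germ-free colon libraries averaged 1.14% ± 1.12, against 0.288% ± 0.350 in SPF colon libraries (exact permutation p = 0.667). Of C1q-high cells, the difference between the germ-free and the SPF colon was thus larger than the SD of either group, although the test could not reach a smaller p, whereas the small intestine difference of 13.01 points was smaller than the SD of the small intestine libraries. The germ-free difference as a share of all kept cells, 0.853 points, was smaller than the SD of the germ-free libraries. After cells were thinned to 3000 UMIs, the germ-free libraries averaged 10.1% ± 8.41 of C1q-high cells and the SPF libraries 1.84% ± 2.60, a difference of 8.28 points that was smaller than the germ-free SD. The single libraries from treated mice have no replicate, and their shares are given as values.

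**Figure D2:**
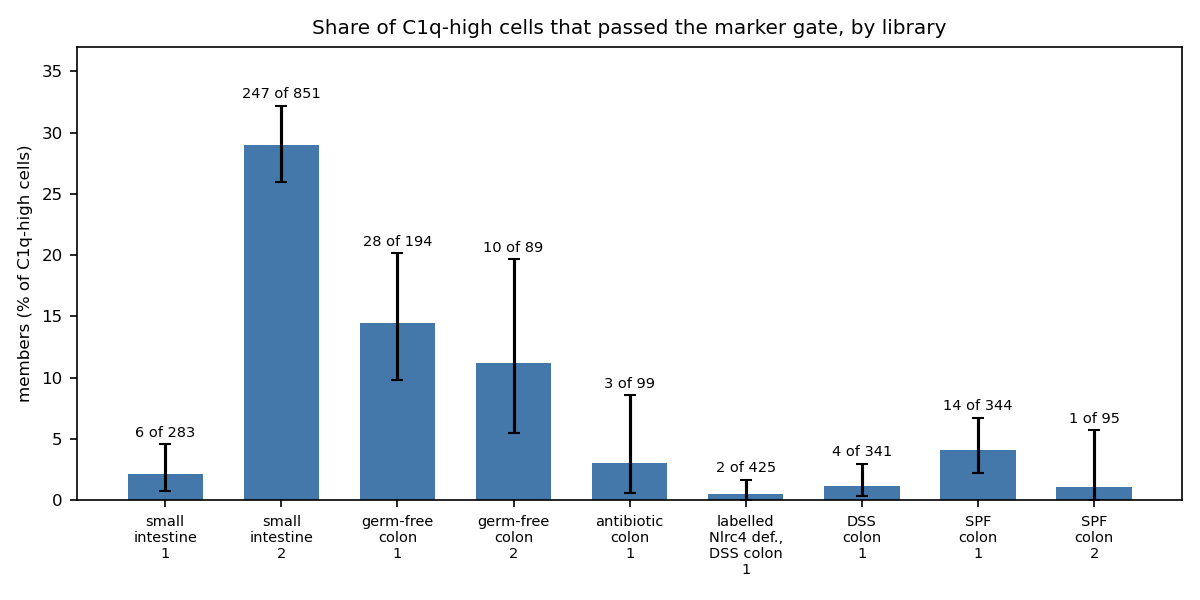
Members as a percent of C1q-high cells in each of the 9 libraries, with exact binomial 95% intervals for counting error. The germ-free colon libraries stand at 14.4% and 11.2%, above 4.07% and 1.05% in the SPF colon, and the small intestine libraries at 2.12% and 29.0%.

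Free RNA in the droplets gave few cells past the marker limit. Among B cells (at least 5 UMIs of B cell markers, under 5 of C1q), 0 to 0.409% per library held at least 2 marker UMIs, and among kept cells with no C1q UMI the share was at most 0.902%, in germ-free colon 2. In the DSS colon labelled Nlrc4 deficient, 0 of 872 B cells passed, which allows a share of up to 0.344%, next to 0.471% of C1q-high cells. With every cell thinned to 3000 UMIs, shallower cells left out, members made up 25% of C1q-high cells in small intestine 2 (143 of 572), 0.966% in small intestine 1, 15.7% and 4.29% in the germ-free colon libraries, and 3.39% and 0% in the SPF colon libraries. Germ-free colon 2 moved most with thinning, and its C1q-high cells were the deepest of the libraries (median 11624 UMIs). No pair of libraries shared more than 20 barcodes, and no member barcode occurred in another library's members. Nlrc4 was read at 19.9 CPM (UMIs of a gene scaled to a fixed library total) in kept cells of the library labelled Nlrc4 deficient, above the 2.42 to 16.5 of the other libraries; a 3' tag may lie outside the deleted part of a gene and does not check that label.

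Cells on both sides of the marker limit were few beside those far from it. Of the C1q-high cells, 2275 held no UMI of Cd163, Lyve1 or Folr2, 131 held 1, 70 held 2 and 245 held 3 or more. In small intestine 2 these numbers were 523, 81, 61 and 186, and in the other 8 libraries 1752, 50, 9 and 59, so cells next to the limit came mainly from small intestine 2. At the C1q limit, only cells with at least 2 marker UMIs were counted. Of these, 5 members had 5 or 6 C1q UMIs and 6 cells just outside had 3 or 4. By level, 31 members lay at 30 to 40 C1q UMIs per 10000, with 26 cells just outside at 20 to 30.

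Macrophage genes outside the gate were detected in nearly all members, though cells that were not C1q-high were not scored beside them. Over the 5 libraries with at least 5 members (both small intestine, both germ-free colon and SPF colon 1), 303 of 305 members held at least 2 UMIs of the 8 macrophage markers Adgre1, Csf1r, Mrc1, Cd68, Fcgr1, Mertk, Aif1 and Lyz2, and 1377 of 1456 other C1q-high cells did. The summed level of these markers was 50.7 to 186 per 10000 in members and 44.8 to 94.9 in other C1q-high cells. Monocyte markers summed to 1.16 to 2.20 in members and 2.51 to 14.8 in other C1q-high cells, with the highest value in other C1q-high cells of SPF colon 1. Lymphatic and vascular endothelium, which also expresses Lyve1, was nearly absent from members: its 7 markers summed to 0.0960 to 0.400 per 10000, with Flt4, Ccl21a and Mmrn1 at 0 in small intestine 2 and Cdh5, Prox1, Flt4, Ccl21a, Kdr and Mmrn1 at 0 in germ-free colon 1. T or NK cell markers summed to at most 0.0620 and mast cell or basophil markers to 0 in members. In other C1q-high cells T or NK cell markers summed to 0.0299 to 0.792, highest in germ-free colon 2. Dendritic cell markers summed to 0 to 2.30 in members and 1.04 to 4.09 in other C1q-high cells, highest in germ-free colon 2 in both. They gave at least 2 UMIs in 29 of 305 members and 220 of 1456 other C1q-high cells. Neutrophil markers gave at least 2 UMIs in 36 of 305 members and 201 of 1456 other C1q-high cells. B cell markers summed to 0.123 to 4.00 in members, highest in SPF colon 1 (20 UMIs, with at least 2 UMIs in 1 of 14 cells), and their part in the results was not tested. Plasma cell markers, a list that includes Xbp1, gave at least 2 UMIs in 141 of 305 members and in 836 of 1456 other C1q-high cells. When cells with markers of B, T or NK, plasma, endothelial, epithelial or fibroblast cells were left out, 3 libraries remained and the number of genes called between the classes was 172 in place of 583. Cells with dendritic cell or neutrophil markers were kept in that setting, and their part in the results was not tested.

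Members and other C1q-high cells were then compared for all genes outside the gate, to ask what else the cells with these receptors expressed. The UMIs of each class were summed per library and tested over the 5 libraries with at least 5 members by the quasi-likelihood test of edgeR, each library forming a block, with p-values adjusted over all 6963 genes tested by the Benjamini-Hochberg method at a false discovery rate of 0.05. Of these, 201 genes (2.89%) were higher in members and 382 (5.49%) lower, 583 in all (8.37%). A total of 126 of the 201 and 258 of the 382 had the same direction in all 5 libraries. Without small intestine 2, 114 (1.98%) were higher and 179 (3.11%) lower of 5762 tested. Of the genes called in the whole comparison, 107 and 172 were called in both, and all 536 that could be tested in both had the same direction. Levels below are UMIs per 10000 of the class, in the order small intestine 1 and 2, germ-free colon 1 and 2 and SPF colon 1. Members of these libraries held 25844 to 1129035 UMIs, so 3 UMIs, the limit that a count of 0 allows, correspond to 1.16 in small intestine 1 but 0.0266 in small intestine 2.

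F13a1 and C4b, genes of coagulation and complement, were among the largest named increases. These were named only if higher in members of all 5 libraries, so that direction is not a separate result. F13a1 (chr13:36867178-37050244, minus strand), the A subunit of coagulation factor XIII, stood at 0.387, 2.88, 7.57, 3.26 and 12.8 in members, against 0.0124, 0.373, 0.409, 0.437 and 0.362 in other C1q-high cells. It was higher in members of every library, while the lowest member value, from the 6 cells of small intestine 1, fell within the range of the other cells. The log2 fold change was 3.66 ± 0.26 (SE; adjusted p = 4.78e-25) and 4.04 without small intestine 2. C4b, a component of the classical complement pathway (chr17:34728380-34743882, minus strand), stood at 1.16, 0.523, 0.677, 1.06 and 3.60 in members, against 0.0248, 0.0345, 0.0499, 0 and 0.150, with no overlap (log2 fold change 4.35 ± 0.40). Of the 9 complement genes tested 2 rose, C4b among them, and 3 fell, Itgax, C3 (log2 fold change -1.06) and Cfb (-1.55), with a list median of 0.10 beside -0.05 over all genes tested.

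Gas6, a bridging ligand that links dying cells to receptors on phagocytes, stood at 2.71, 1.93, 3.81, 1.63 and 4.80 in members, against 0.371, 0.424, 0.409, 0.219 and 0.179 in other C1q-high cells (log2 fold change 2.91 ± 0.26). Its receptor gene Mertk rose less (0.96 ± 0.26, adjusted p = 0.00838 by edgeR), and the second bridging ligand gene Pros1 rose by 1.60. With the scavenger receptor genes Stab1 (1.41) and Cd36 (2.06), 5 of the 13 tested genes of dead-cell clearance rose and none fell (list median 0.21). Cd36 stood at 2.71, 2.98, 4.37, 2.50 and 5.41 in members, against 0.458, 1.13, 0.618, 0.937 and 0.489 in other C1q-high cells. Both Gas6 and Cd36 separated the classes without overlap.

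Bmp2, a growth factor known from muscularis macrophages for signalling to enteric neurons, stood at 1.55, 2.05, 0.369, 0.0960 and 5.21 in members, against 0.0557, 0.393, 0.0798, 0.0104 and 0.0752 in other C1q-high cells. It was higher in members of each library, as was required of the largest named increases, with overlap between libraries (log2 fold change 3.42 ± 0.37). Bmp2 had too few counts to be tested without small intestine 2. Igf1, the insulin-like growth factor, stood at 0.774, 1.27, 1.91, 0.576 and 1.60 in members, against 0.204, 0.366, 0.200, 0.250 and 0.165 (2.14 ± 0.32). Its values did not overlap. Gdf15, a stress-induced cytokine of the TGF-beta family, rose by 1.06, so 3 of the 10 tested growth factor and tissue support genes rose, and Vegfa fell (-0.98). The remaining named increases were Serpinb6a, an intracellular protease inhibitor (2.98), Ednrb, an endothelin receptor (2.89), Wwp1, a ubiquitin ligase (2.48), Sesn1, a stress-induced sestrin (2.43), and Psd3, an exchange factor for ARF proteins (2.37).

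**Figure D3:**
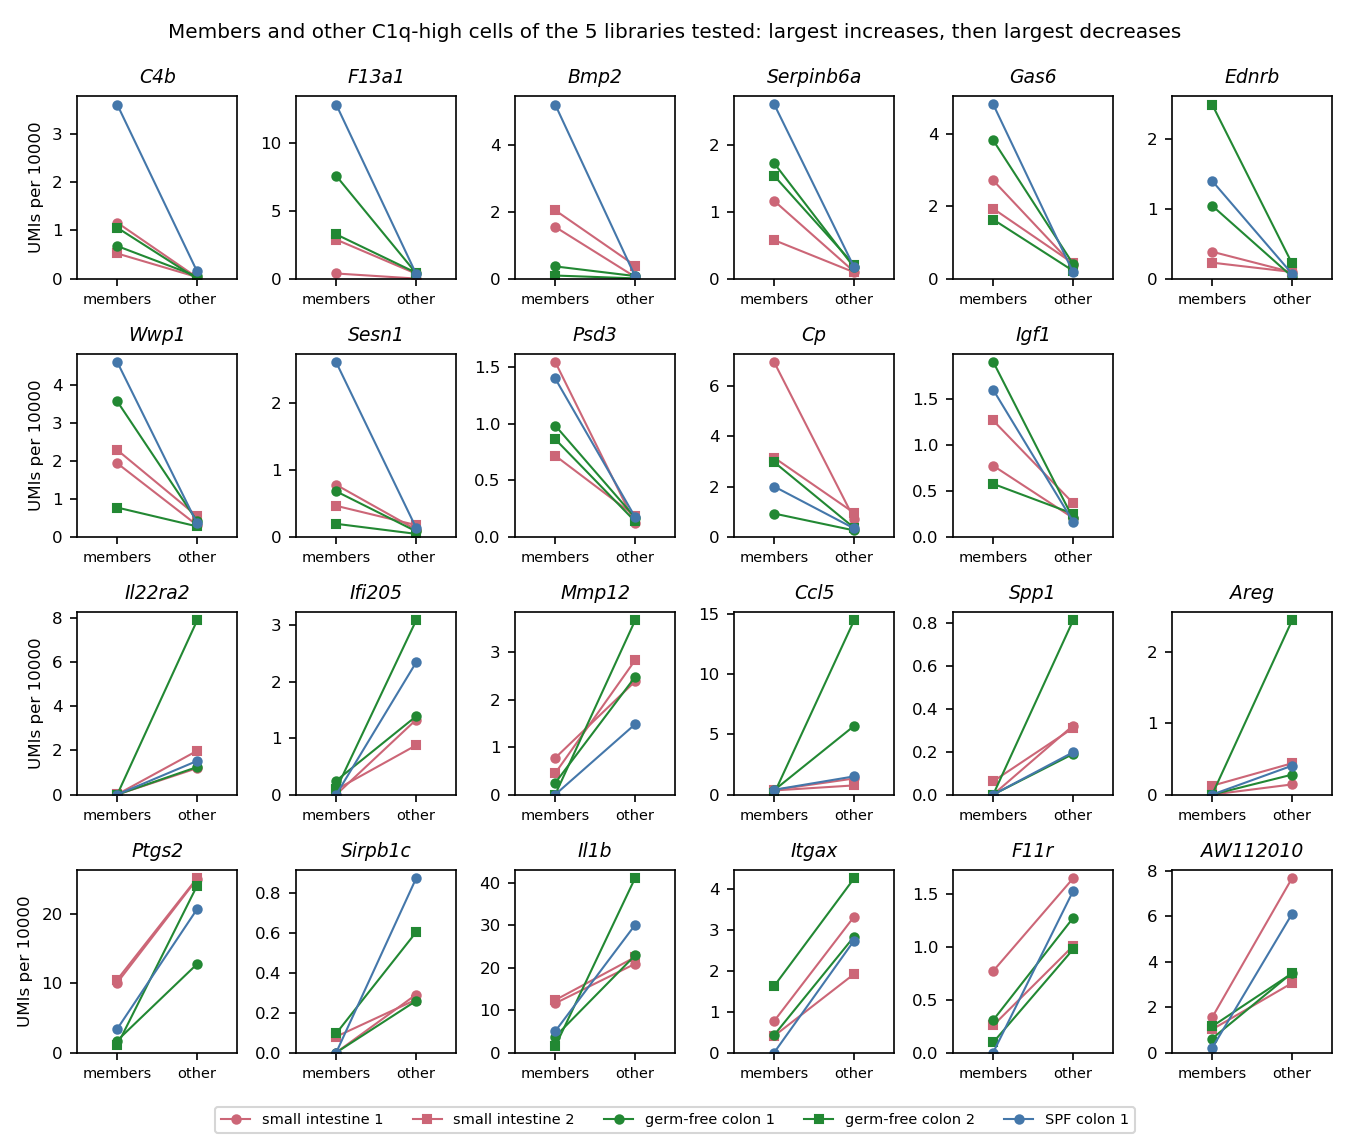
Levels (UMIs per 10000 UMIs of the class, linear axes from 0) in members and in other C1q-high cells, 1 line for each of the 5 libraries tested, for genes with the largest increases and then those with the largest decreases. Genes were chosen for having 1 direction in all 5 libraries, so every line falls to the right for the increases and rises for the decreases. C4b in SPF colon 1 stands at 3.60 in members, against 0.150. Ccl5 in germ-free colon 2 stands at 0.0960, against 14.5. Of the 5 libraries, that one had the highest T or NK cell and dendritic cell marker levels in other C1q-high cells.

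In a list drawn up for iron, heme and folate handling, more genes rose than fell, and most were not called. Cp, ceruloplasmin, which oxidises iron for export, stood at 6.96, 3.15, 0.923, 2.98 and 2.00 in members, against 0.718, 0.949, 0.249, 0.354 and 0.329 in other C1q-high cells (log2 fold change 2.24 ± 0.25). Slc40a1, the iron exporter ferroportin, rose by 1.52, and Hpgd (1.46), Slco2b1 (1.25) and Nrp1 (1.48) also rose, while Fth1, the ferritin heavy chain, fell (-0.64). That made 5 of 14 tested higher and 1 lower (list median 0.39); without small intestine 2 the counts were 3 and 1. Hpgd degrades prostaglandins, Slco2b1 encodes an organic anion transporter and Nrp1 a semaphorin and VEGF co-receptor, so the members of the list that rose were not all iron genes.

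A list of genes often found with these receptors on resident macrophages gave 13 of 15 tested higher and none lower (median 1.51), and 12 of 14 without small intestine 2. The list was drawn up with earlier results of these data known. Pf4, a CXC chemokine of platelets and macrophages, stood at 5.80, 7.50, 17.2, 6.04 and 9.41 in members, against 2.08, 2.04, 2.18, 1.36 and 1.41 in other C1q-high cells (2.09 ± 0.21). Mrc1, the mannose receptor, stood at 14.7, 12.9, 15.9, 4.41 and 14.4, against 3.13, 4.63, 4.43, 2.00 and 2.50 in other C1q-high cells (1.64 ± 0.20). Pf4 did not overlap between the classes, and for Mrc1 only members of germ-free colon 2 came within the range of the other cells. Selenop (1.15), Ltc4s (1.29), Maf (1.51) and Clec10a (1.06) were among the other genes of this list that rose, and Timd4 and Ninj1 were not called. Cbr2, Fcna and 4 Cd209 genes had too few counts to be tested.

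Of the muscularis macrophage genes the study names, 4 of 8 tested rose, among them Mrc1, Bmp2 and Retnla, and 2 of 7 without small intestine 2. The study itself found no high Bmp2 expression in the subset it calls muscularis macrophages. The list also holds Adgre1, Cx3cr1, Mrc1 and Cd81, which the study uses for resident macrophages in general. The count is thus no match to that subset. Retnla, a secreted resistin-like protein, rested on few cells: 436 UMIs in 12 of 315 members, 237 of them in 1 cell of germ-free colon 1, and 1314 UMIs in 41 of 2406 other C1q-high cells, 538 of them in 1 cell. Its log2 fold change of 3.54 ± 0.36 therefore reflects single cells. Arg1, Aldh1a2 and Ccl17 had too few counts to be tested.

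Pan-macrophage genes did not pass the test. The log2 fold change was 0.06 for Adgre1, which encodes F4/80, 0.27 for Cx3cr1, the fractalkine receptor, 0.09 for Cd81, 0.16 for Csf1r, the receptor for macrophage colony-stimulating factor, and -0.45 for Fcgr1, which encodes CD64. Nlrp3, the inflammasome sensor that the study is about, stood at 13.5, 10.1, 8.68, 5.76 and 4.80 in members, against 8.10, 12.5, 10.1, 10.5 and 7.38 in other C1q-high cells. It was lower in members of 4 of 5 libraries and not called (-0.46, adjusted p = 0.143 by edgeR).

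Chemokines moved in both directions. Of the 16 tested, 7 rose, 4 fell and the others were not called (median 0.11). Higher were Pf4 and the CC chemokines Ccl2 (1.22), Ccl6 (1.70), Ccl7 (1.30), Ccl8 (1.99), Ccl9 (1.00) and Ccl12 (1.34), of which several attract monocytes. Of these, Ccl8 was higher in members of only 3 of the 5 libraries and Ccl12 of 4, the others of all 5. Lower were Ccl5 (-3.07), Cxcl1 (-1.09), Cxcl9 (-1.91) and Cxcl16 (-0.96), of which Cxcl9 draws T cells and Cxcl1 neutrophils. Ccl7 stood at 13.2, 12.4, 6.28, 1.82 and 3.40 in members, against 2.20, 3.46, 3.14, 1.10 and 1.54 in other C1q-high cells, higher in each library. Ccl5 stood at 0.387, 0.345, 0.369, 0.0960 and 0.400, against 1.34, 0.763, 5.70, 14.5 and 1.51, without overlap. Without small intestine 2, 5 of 15 rose and 4 fell, with a list median of -0.30.

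Genes of mature mucosal macrophages formed the opposite group: 10 of 16 tested fell and 1 rose (median -1.46), with the same counts without small intestine 2. Il22ra2, a soluble decoy receptor that binds the cytokine IL22, was found as 1 UMI in 1 of 315 members and as 2543 UMIs in 88 of 2406 other C1q-high cells, a ratio of 0.00409 (Poisson 95% interval 0.000104 to 0.0228, counting error only). In other C1q-high cells of the 5 libraries it stood at 1.20, 1.98, 1.25, 7.87 and 1.52, and it was found there in few cells. The interval of the ratio takes UMIs as independent and does not cover their clustering in these cells. Mmp12, macrophage elastase, stood at 0.774, 0.452, 0.246, 0 and 0 in members, against 2.39, 2.84, 2.48, 3.68 and 1.49 in other C1q-high cells (-3.24 ± 0.32). Itgax, which encodes CD11c, stood at 0.774, 0.407, 0.431, 1.63 and 0, against 3.33, 1.93, 2.84, 4.27 and 2.75 (-2.37 ± 0.28). Neither gene overlapped between the classes. Mmp13 (-1.79), Mmp14 (-1.96), Acp5 (-1.67), Cd9 (-1.91), Dnase1l3 (-1.41), Adamdec1 (-1.52) and Il10 (-1.0) also fell. The exception was Vcam1, an adhesion molecule of the same list, at 2.71, 6.94, 7.94, 5.76 and 10.2 in members, against 0.291, 1.02, 1.51, 2.53 and 2.07 (2.11 ± 0.23).

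Inflammatory mediators were lower: 6 of 12 tested fell and none rose (median -0.97), and 5 of 13 without small intestine 2. Ptgs2, the inducible cyclooxygenase, stood at 10.1, 10.5, 1.72, 1.06 and 3.40 in members, against 25, 25.1, 12.8, 24.0 and 20.7 in other C1q-high cells (-2.56 ± 0.22). Il1b stood at 11.6, 12.4, 3.75, 1.44 and 5.00, against 20.9, 22.5, 22.9, 41.1 and 30.1 (-2.41 ± 0.23). Neither overlapped, and for both the highest member values came from the 2 small intestine libraries. Il1a (-1.59), Il6 (-1.48), Il23a (-1.95) and Il1rn, the interleukin-1 receptor antagonist (-1.80), fell as well. Of 13 anti-inflammatory mediators and receptors, 1 rose (Socs3, an inhibitor of cytokine signalling, 0.75) and 1 fell (Il10), and Tgfbr2 was not called (0.71, adjusted p = 0.0518 by edgeR). The other named decreases were Ifi205 (-3.64) and AW112010 (-2.29), both interferon-inducible, Spp1, osteopontin (-2.97), Areg, a ligand of the epidermal growth factor receptor (-2.85), Sirpb1c (-2.43) and F11r, a junctional adhesion molecule (-2.29).

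Most antigen presentation genes tested were lower in members. Of 10 tested genes of the MHC class II list 7 fell (median -0.97), and the count was 7 of 9 without small intestine 2. The list also holds the co-stimulatory genes Cd40 and Cd86. H2-Oa (-1.24), Ciita (-0.08) and Cd86 (0.15) were not called. H2-Aa stood at 63.8, 62.1, 33.5, 66.9 and 47.0 in members, against 79.3, 81.1, 103, 100.1 and 89.9 in other C1q-high cells (-0.97 ± 0.15), with no overlap. H2-Eb1 (-1.04), H2-Ab1 (-0.96), Cd74 (-0.75), H2-DMa (-0.86), H2-DMb1 (-1.01) and the co-stimulatory gene Cd40 (-1.42) fell likewise. The members thus held a high level of class II transcripts that was nonetheless below that of the other cells.

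Of 7 monocyte genes tested 4 fell: Ly6c2 (-3.58), Plac8 (-1.93), Thbs1 (-1.52) and Ccr2 (-1.10), and 2 of 6 fell without small intestine 2. Of 15 interferon response genes 3 fell (Rsad2 and Ifit1 at -2.10 each, Isg15 at -0.97), of 7 cell cycle genes 2 (Mki67 -0.92, H2afz -0.87) and of 13 glycolysis and hypoxia genes 5, among them Slc2a1 (-1.47), Pgk1 (-1.04) and Gapdh (-0.85). The glycolysis count was 1 of 11 without small intestine 2. Lysosomal and lipid genes changed little as a list (1 of 19 higher, Ctsd, and 4 lower, Ctss, Ctsz, Lgmn and Psap; median 0.03).

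**Figure D4:**
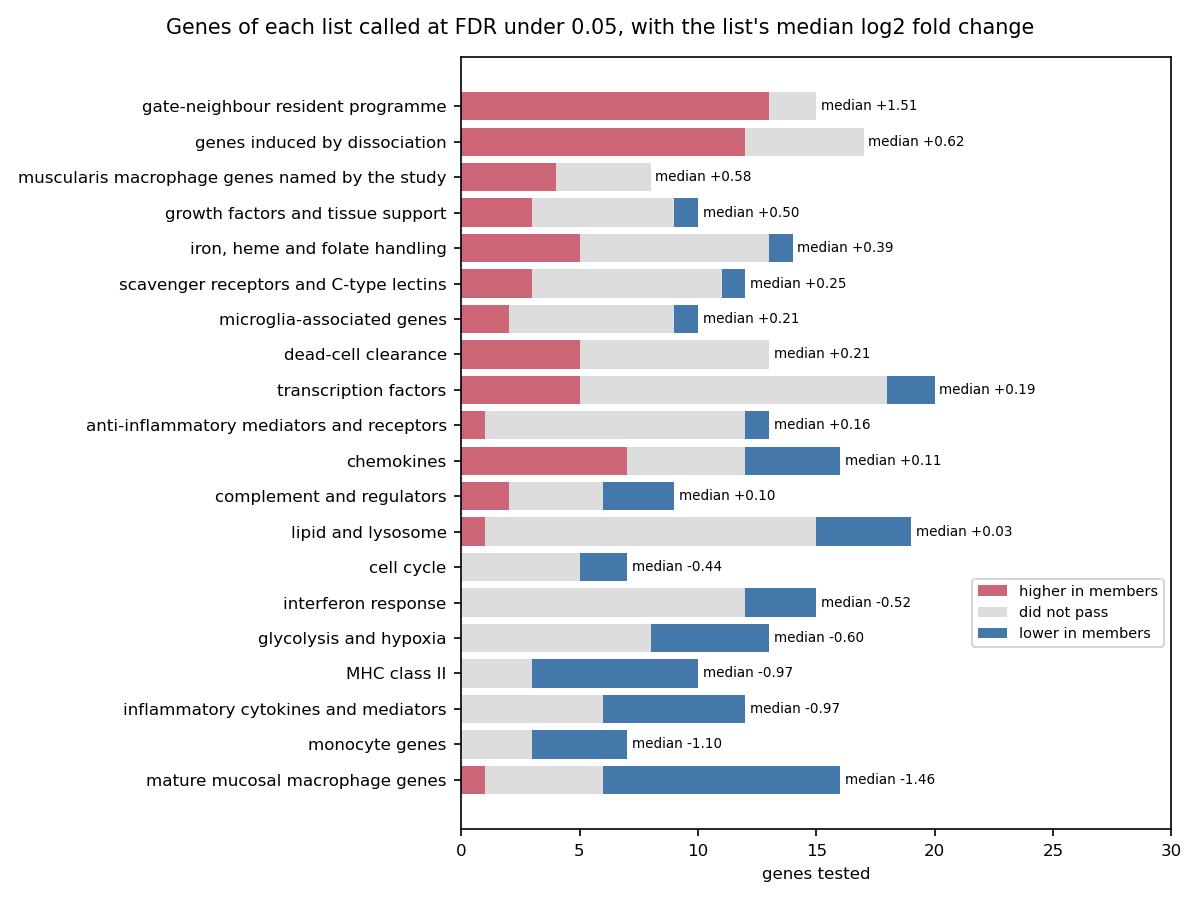
Number of tested genes of each list (x axis) that were higher (red), lower (blue) or not called (grey) in members against other C1q-high cells at a false discovery rate of 0.05, with each list's median log2 fold change. The list of genes around the gate receptors has 13 of 15 higher and that of dissociation-induced genes 12 of 17 higher. The MHC class II list, which includes Cd40 and Cd86, has 7 of 10 lower.

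Of 20 transcription factors tested, 5 rose and 2 fell. Maf, a factor of resident macrophages, stood at 4.26, 6.56, 7.38, 1.34 and 12 in members, against 2.38, 2.45, 1.60, 0.927 and 1.64 in other C1q-high cells (1.51 ± 0.23), higher in every library. Spic, the factor of red pulp macrophages that is induced by heme (1.32), Klf2 (1.15), Tcf4 (0.92) and the immediate early gene Egr1 (1.21) also rose, and Bhlhe40 (-1.57) and Nr1h3, a sterol-sensing nuclear receptor (-1.19), fell. Of 10 microglia-associated genes tested, Siglech (2.23) and Gpr34 (1.51) rose and Olfml3 (-2.23) fell. In the group of scavenger receptors and C-type lectins, 3 of 12 rose (Mrc1, Cd36, Clec10a), and Clec4e fell (-0.89), which was no longer called without small intestine 2.

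Genes induced when tissue is digested moved in the same direction as the resident genes. Of 17 such genes 12 rose and none fell (median 0.62), 6 of 17 without small intestine 2. Hspa1b stood at 7.74, 40.5, 7.75, 9.02 and 26.6 in members, against 1.09, 11.8, 4.11, 2.45 and 3.11 in other C1q-high cells (1.86 ± 0.20), and Jun at 4.64, 21.0, 16.2, 3.17 and 47.5, against 4.67, 7.38, 4.33, 2.31 and 4.45 (1.41 ± 0.22). Hspa1b was higher in each library and Jun in 4 of 5. Hspa1a and Hspa1b are near-identical copies, and reads could be split between them. The median mitochondrial percent was 4.31, 3.41, 5.91, 4.68 and 5.06 in members, against 3.58, 3.53, 5.50, 4.18 and 3.62 in other C1q-high cells. The median depth was 4099.5, 4356, 5601.5, 5989.5 and 3357.5 UMIs in members, against 5248, 4120.5, 4812, 12013 and 5583. The part of digestion and of depth in the differences was not tested.

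Levels changed with the number of marker UMIs also below the limit. In small intestine 2, with 0, 1, 2 and 3 or more UMIs of Cd163, Lyve1 and Folr2, Mrc1 stood at 4.18, 8.31, 10.7 and 13.5 per 10000, F13a1 at 0.28, 1.12, 1.43 and 3.29, and Gas6 at 0.36, 0.96, 1.27 and 2.12. In the same cells Ptgs2 stood at 25.8, 19.9, 13.5 and 9.63 and H2-Aa at 82.6, 69.8, 68.0 and 60.4. Each of these 5 genes had an ordered series in that library. They were taken from the genes called between members and other C1q-high cells in a fit that included these cells. The ends of each series are therefore not independent of that result, and the series were not tested. In the other 8 libraries F13a1 stood at 0.39, 2.38, 2.60 and 6.02 and Ptgs2 at 28.1, 7.39, 3.53 and 2.27, also ordered, whereas H2-Aa (85.2, 73.8, 96.5 and 51.2) was not. Only 9 cells there held exactly 2 UMIs. Cells with 1 marker UMI, counted among the other C1q-high cells, were between the cells with none and the members for these genes in small intestine 2.

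**Figure D5:**
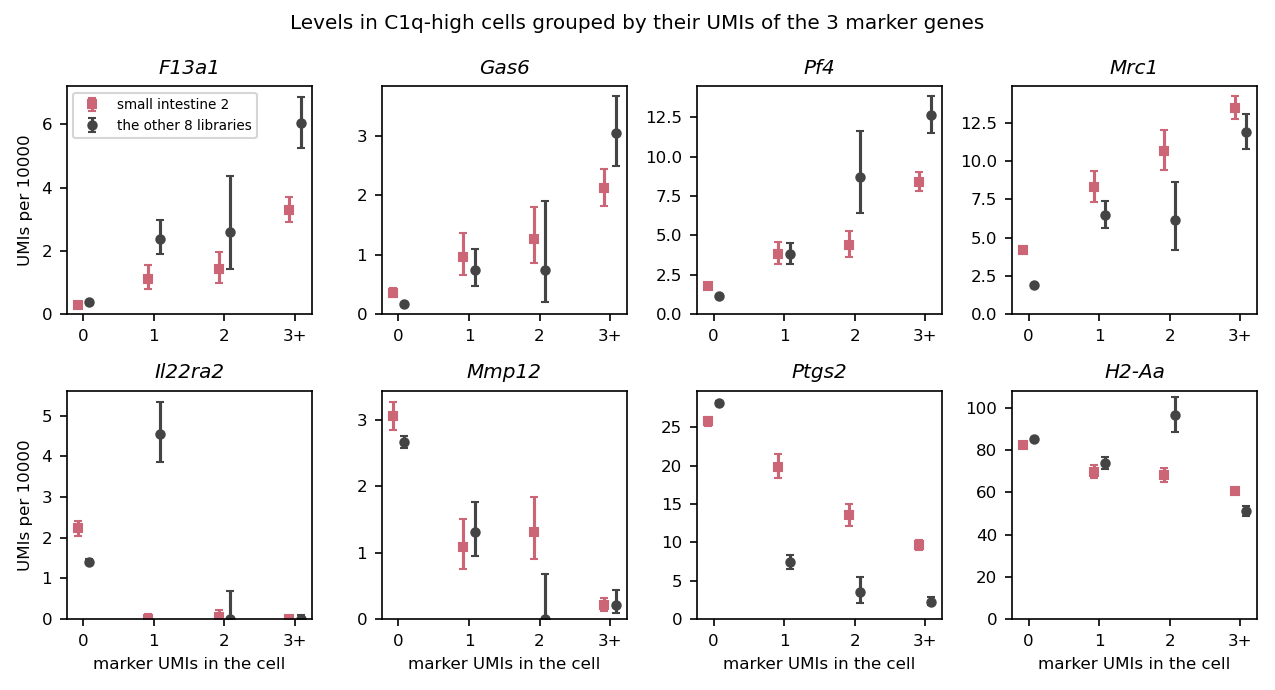
Levels per 10000 UMIs of genes outside the gate in C1q-high cells grouped by their UMIs of Cd163, Lyve1 and Folr2 (0, 1, 2, 3 or more), in small intestine 2 and in the other 8 libraries, with exact Poisson 95% intervals. In small intestine 2 Mrc1 stands at 4.18 with no marker UMI and 13.5 with 3 or more, and Ptgs2 at 25.8 and 9.63.

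Members that held Lyve1 or Folr2 were set beside those with Cd163 alone, as a description. In small intestine 2 (46 and 201 cells), F13a1 stood at 4.86 and 2.34 per 10000 and was found in 54.4% and 27.9% of cells (46.3% and 22.6% with cells thinned to 3000 UMIs), Ccl8 at 2.51 and 0.73, and Cbr2 at 1.28 and 0.35. Bmp2 (1.73 and 2.13), Gas6 (1.73 and 1.99) and Mrc1 (14.1 and 12.5) differed less than these. Retnla stood at 2.51 and 0, but its 61 UMIs were in 1 cell. In the other 8 libraries (34 and 34 cells), F13a1 stood at 5.32 and 6.12, Bmp2 at 0.28 and 2.41, Hspa1b at 4.75 and 20.6, Gdf15 at 3.05 and 15.1 and H2-Aa at 63.3 and 44.2. The order of F13a1 between the subsets thus differed between small intestine 2 and the other libraries. Cells of 1 library are not replicates, and these subsets were not tested.

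Few members came from treated mice, and their levels are given without a test. In the antibiotic-treated colon (3 members), F13a1 stood at 2.61, Pf4 at 27.1 and Ccl2 at 61.6 in members, against 0.894, 3.56 and 8.11 in other C1q-high cells. In the DSS colon labelled Nlrc4 deficient (2 members), F13a1 stood at 4.05, Pf4 at 37.5 and Mrc1 at 18.2 in members, against 0.495, 0.408 and 0.646. In the DSS colon (4 members), they stood at 1.22, 6.51 and 7.32, against 0.630, 0.377 and 1.26. In each of these 3 libraries the genes given were higher in members. They were picked from genes called higher in the 5 libraries tested, and how many other genes were higher was not counted. In members, 3 UMIs correspond to 1.57, 3.04 and 1.22 per 10000 in these libraries, so F13a1 rested on few UMIs. The 1 member of SPF colon 2 held no UMI of F13a1, Pf4 or Mrc1 in 22961 UMIs, where 3 UMIs would be 1.31 per 10000, and its marker UMIs were all of Folr2.

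Between groups of libraries, members alone gave no called gene. Of 1622 genes tested by edgeR, 0 (0.00%) differed between members of the small intestine and of the SPF colon, and 0 (0.00%) between the germ-free and the SPF colon. At an unadjusted p under 0.05 there were 69 and 34 genes, and DESeq2 called 2 and 0. SPF colon 2 held 1 member and small intestine 1 held 6, and without either library the counts were also 0. Among the values, Il10 stood at 13.5 and 7.46 in members of the small intestine libraries and 5.11 and 5.47 in germ-free colon libraries, against 0.801 and 0 in SPF colon libraries. In other C1q-high cells Il10 stood at 10.8 and 8.76 in the small intestine and 13.1 and 10.6 in the germ-free colon, against 6.07 and 25.9 in the SPF colon. Il10 was picked after these values were seen, and the SPF values in members came from 15 cells. How many other genes lay as far apart between the groups was not counted. With an interaction term, the log2 ratio of members to other C1q-high cells varied between the small intestine and the SPF colon for 10 of 8456 genes (0.118%). The ratio was higher in the small intestine for 8 (0.0946%) and lower for 2 (0.0237%). Between the germ-free colon and the SPF colon it varied for 5 genes (0.0591%). It was higher in the germ-free colon for 4 (0.0473%) and lower for 1 (0.0118%). A higher ratio can be a smaller decrease in members. DESeq2 called 0 in both, and without SPF colon 2 the counts were 3 and 9.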

How the data were processed

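The data are the single-cell count matrices of 9 10x Genomics 3' libraries. The authors made the UMI counts with Cell Ranger 3.0.2 (from the matrix headers; STAR 2.5.1b and mm10 in the submitters' processing notes) and deposited them without normalization, 31053 genes per library. How strand was counted is not given in the sources used here, so overlapping genes may share reads. The libraries held 13243317 to 64453601 UMIs over all barcodes.

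The deposited barcodes were taken as cells and filtered as described above. Scrublet in scanpy 1.11.5 called 133 doublets, 0 of them members; in small intestine 2 it marked 0.0366% of cells and is taken as not having worked. Counts were summed per library and class, with the 6 gate genes removed before scaling. They were tested with edgeR 4.0.16 in R 4.3.3 (TMM, filterByExpr, quasi-likelihood, Benjamini-Hochberg) with the library as a block, over libraries with at least 5 cells of each class; DESeq2 1.42.0 was an alternative. Fold changes are TMM-scaled and levels per 10000 UMIs are not. The test was tried on simulated counts before use. Between groups, members of the 6 libraries of the small intestine, the germ-free colon and the SPF colon were fitted together. Intervals are exact Poisson or Clopper-Pearson at 95% and cover counting error only.

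Named genes were the 12 with the largest change in each direction among called genes with at least 50 CPM in the higher class and 1 direction in all 5 libraries, the 3 with the smallest adjusted p of each list, and genes the study names; genes beyond this rule are given as parts of a list or, like Il10 between groups, were chosen after their values were seen. Mitochondrial, ribosomal, immunoglobulin, haemoglobin and predicted genes were left out of the first part. Some genes that the rule names are not reported here. The members and the lists were chosen with earlier results of these data known. Alternatives were other cell filters and marker limits, thinning to 3000 UMIs, no filter on low counts, other scaling, other blocks and each library left out. Libraries of other genotypes in the study are not analysed here.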

Additional observations from a re-analysis of the deposited data

Results flagged for a closer look

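The difference between members and other C1q-high cells was compared between groups of libraries with an interaction term in edgeR over 6 libraries and 8456 genes. It differed between the small intestine and the SPF colon for 10 genes (0.118%; 318 at an unadjusted p under 0.05), and between the germ-free colon and the SPF colon for 5 genes (0.0591%; 297 unadjusted). DESeq2 called 0 in both. Without SPF colon 1, which leaves 1 member cell in the SPF colon, the counts were 89 and 56, and without SPF colon 2 they were 3 and 9; without germ-free colon 1 they were 5 and 0.

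Il10, an anti-inflammatory cytokine, had a member difference that was 4.74 higher on the log2 scale in the small intestine than in the SPF colon (adjusted p = 7.99e-05, edgeR) and 3.61 higher in the germ-free colon than in the SPF colon (adjusted p = 0.0315, edgeR). Without SPF colon 2 these differences were 3.11 (adjusted p = 0.0839) and 1.96 (adjusted p = 0.971). Il1b had a member difference 3.10 higher in the small intestine than in the SPF colon (adjusted p = 0.00443, edgeR), and 1.92 without SPF colon 2 (adjusted p = 0.708). The other genes called for the small intestine were Mmp13, Cd14, Retnlg, Cxcl1, Cxcl2, Pgf, Lrp8 and Gpm6b, and for the germ-free colon Bc1, Mrpl9, Tppp3 and S100a10. The SPF colon side of these contrasts rests on 15 member cells, 1 of them in SPF colon 2, and the part of that cell in the calls was not tested beyond leaving its library out.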

How the results depend on the processing

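The 65 named genes called between members and other C1q-high cells gave 1140 values under the alternatives: 1024 kept the direction and the call, 115 kept the direction and lost the call, and 1 turned, Areg with a marker limit of 1 UMI (0.18). Mki67 lost the call in 12 settings and Socs3 in 11. Of the 8 named genes not called, 13 values turned: Cd81 to -0.081 without the filter on low counts, -0.051 with other lineages' markers left out, -0.13 with at least 20 cells per class, -0.16 with SPF colon and small intestine only and -0.15 without germ-free colon 2 (to 0.20 without small intestine 1); Adgre1 to -0.11 without the filter, -0.00085 with the stricter cell filter, -0.019 with at least 3000 UMIs and -0.074 without germ-free colon 1 (-0.055 without small intestine 2, to 0.32 without germ-free colon 2); Csf1r to -0.017 without the filter and -0.086 with SPF colon and small intestine only; and Fcgr1 to 0.044 with at least 20 cells per class. Another 5 values gained the call: Tgfbr2 with RLE scaling (0.79), with a marker limit of 1 UMI (0.70) and without germ-free colon 2 (0.80), and Nlrp3 without the filter (-0.64) and with a marker limit of 3 UMIs (-0.78). The number of genes called between the classes, 583, was 337 with at least 20 cells per class, 335 after thinning, 379 with at least 3000 UMIs, 371 by DESeq2, 172 with other lineages' markers left out and 255 with SPF colon and small intestine only, all on fewer cells or libraries except DESeq2; it was 124 with no library block and 285 to 659 without 1 library at a time (285 without germ-free colon 1, 293 without small intestine 2). Without the filter on low counts 731 genes were called and the median of all genes was -0.25 in place of -0.05. With RLE scaling 226 were higher and 289 lower, in place of 201 and 382. The cause was not tested.

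Between the small intestine and the SPF colon, members gave 0 called genes, but 9 after thinning, 2 by DESeq2, 5 with a marker limit of 1 UMI and 8 without the filter; between the germ-free and the SPF colon, 0, but 3 after thinning and 1 without the filter. Leaving out 1 library at a time gave 0 in both. The 10 and 5 genes whose member difference varied with the group were 0 and 0 by DESeq2, and 3 to 89 and 0 to 56 without 1 library at a time. The share of members in the small intestine minus the SPF colon was -0.441 points of C1q-high cells and -0.124 points of kept cells without small intestine 2, and 26.5 and 4.23 points without small intestine 1.

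With the replicate number as a block, 0 genes were called in both comparisons between groups. The numbers only name the libraries: the deviations of same-numbered libraries correlated at -0.160 between small intestine and germ-free colon, -0.172 between small intestine and SPF colon and 0.584 between germ-free and SPF colon over 1622 genes. Alternatives for libraries with at least 5 members were added after seeing the data and gave 0 calls. Depth limits the values of the libraries with 1 to 6 members most.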
